A study of Bos taurus with 9 samples.

Results

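GAPDH, glyceraldehyde-3-phosphate dehydrogenase, was followed through 9 RNA sequencing libraries of cattle (Bos taurus) oocytes. It was chosen by its identity and not by its values, though with earlier results of these data known. It is 1 gene, ENSBTAG00000014731, of the 15978 genes in the count table. A library came from 5 mature oocytes, pooled, after 24 h of in vitro maturation in medium with iodoacetate, in medium with dichloroacetate, or in medium with neither compound, which is the control. Each group had 3 libraries, here named library 1 to 3 in the order of the sample titles, and the labels do not say whether libraries of different groups were handled together. All groups shared the same base medium with serum, follicle-stimulating hormone, chorionic gonadotropin and estradiol, and all oocytes came from slaughterhouse ovaries, were freed of cumulus cells and had a first polar body. The labels list several concentrations of each compound and do not say which one the sequenced oocytes received. They give no age or breed of the donors.

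GAPDH catalyses the oxidation of glyceraldehyde-3-phosphate in glycolysis, the step that yields the first NADH of the pathway upstream of pyruvate. Iodoacetate is known to inhibit the enzyme by alkylating the cysteine of its active site, so it acts on the protein, and the counts here measure only the transcript. Dichloroacetate is known to inhibit the pyruvate dehydrogenase kinases, further down the route from glucose to the citric acid cycle. Oocytes are known to take up pyruvate that the surrounding cumulus cells make by glycolysis, and a mature oocyte relies largely on transcripts stored during its growth. GAPDH is also widely used as a reference gene for scaling measurements of other transcripts. The question the comparisons address is whether the transcript of the enzyme differed after maturation with its inhibitor, or with a compound that acts at another step.

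The libraries held between 7776877 and 9834849 counts. Library 2 stood apart from the other libraries of its group in all 3 groups, with the lowest share of counts in the 10 most abundant genes, at 8.25%, 7.99% and 7.63% in iodoacetate, dichloroacetate and control. The file pairs none of its identifiers with gene names, and 0 of them matched the RefSeq table used here. The name GAPDH for this identifier was thus taken as given and was not checked. For the same reason the markers of oocytes and cumulus cells, the other enzymes of glycolysis and the testis-type paralog GAPDHS were not analysed here, and the part of remaining cumulus cells in any value below was not tested. In the RefSeq table of the ARS-UCD2.0 assembly, the gene with the symbol GAPDH is protein-coding, on chromosome 5. It lies between IFFO1 and NCAPD2 and overlaps 0 other genes. Whether the counted gene has the same bounds was not tested. Processed copies of GAPDH are common in mammalian genomes, and how reads that fit several copies were counted is not given in the sources used here, so the level of this gene is uncertain to that extent.

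GAPDH was detected in every library, at a moderate level. The values are CPM, counts of the gene per 1000000 counts of the library. The iodoacetate libraries stood at 48.8, 48.0 and 67.5 CPM, from 396, 454 and 631 counts. The dichloroacetate libraries stood at 52.4, 71.8 and 38.4 CPM, from 465, 652 and 299 counts. The control libraries stood at 43.6, 42.8 and 28.2 CPM, from 422, 396 and 277 counts. All 3 iodoacetate libraries lay above all 3 control libraries, while dichloroacetate library 3 lay below 2 of the control libraries. Control library 3 was the lowest of the 9 and dichloroacetate library 2 the highest, a span of 2.55-fold. The iodoacetate mean was 54.8 ± 11.0 CPM and the dichloroacetate mean 54.2 ± 16.8 CPM, against a control mean of 38.2 ± 8.69 CPM (SD, n = 3 each). In the order of the means the compounds stood next to each other, and neither differed from the other beyond its spread. The order of single libraries depended on the scaling. After scaling by trimmed mean of M-values (TMM), iodoacetate library 3 was the highest, at 67.7 CPM against 64.3 CPM for dichloroacetate library 2. On that scale dichloroacetate library 3, at 41.0 CPM, lay below control library 1 only, at 44.6 CPM. In a bulk pool, fewer oocytes with the transcript and less transcript per oocyte cannot be told apart.

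**Figure D1:**
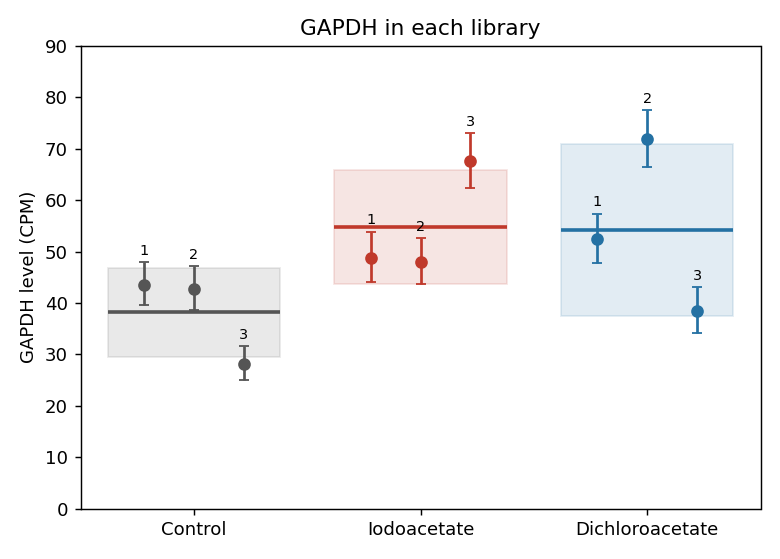
GAPDH level in CPM (y axis) for the 3 libraries of each group (x axis). Points are libraries with exact Poisson 95% intervals of the count, numbers above them are library numbers, thick lines are group means and shaded bands are 1 SD either side. The iodoacetate libraries, at 48.0 to 67.5 CPM, all lie above the control libraries, at 28.2 to 43.6 CPM. The dichloroacetate libraries, at 38.4 to 71.8 CPM, overlap both ranges.

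The spread between libraries of a group was several times the counting error. The coefficient of variation, the SD as a percentage of the mean, was 20.1% for the iodoacetate libraries, 30.9% for the dichloroacetate libraries and 22.7% for the controls. With TMM scaling it was 19.9%, 22.0% and 22.0%, so the higher value for dichloroacetate was not seen on that scale. Counting alone, at the mean count of each group, would give 4.50%, 4.60% and 5.23%. The exact Poisson 95% interval ran from 24.9 to 31.7 CPM for control library 3, the lowest library. For dichloroacetate library 2, the highest, it ran from 66.4 to 77.6 CPM. These intervals cover counting error only, since reads copied during amplification are not independent molecules. Pools and their separate amplifications cannot be told apart as sources of the remaining spread.

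By abundance GAPDH ranked 3227 of 15978 genes in mean CPM over the 9 libraries, so 20.2% of genes had more counts. Its overall mean was 49.1 ± 13.6 CPM (SD, n = 9), 9.14-fold the median gene at 5.37 CPM, and the most abundant gene had 28214 CPM. GAPDH took a mean of 0.00491% of the counts of a library. CPM is not scaled to transcript length, so these ranks compare numbers of reads and not numbers of molecules. Per library, the rank was 3084, 3323 and 2586 for iodoacetate, 2946, 2594 and 3542 for dichloroacetate, and 3392, 3662 and 4267 for the control libraries. The iodoacetate libraries thus ranked GAPDH higher than each control library did. In every library 2341 genes had more counts than GAPDH, and in every library 11543 genes had fewer. The genes above it held between 84.5% and 93.8% of a library's counts.

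**Figure D2:**
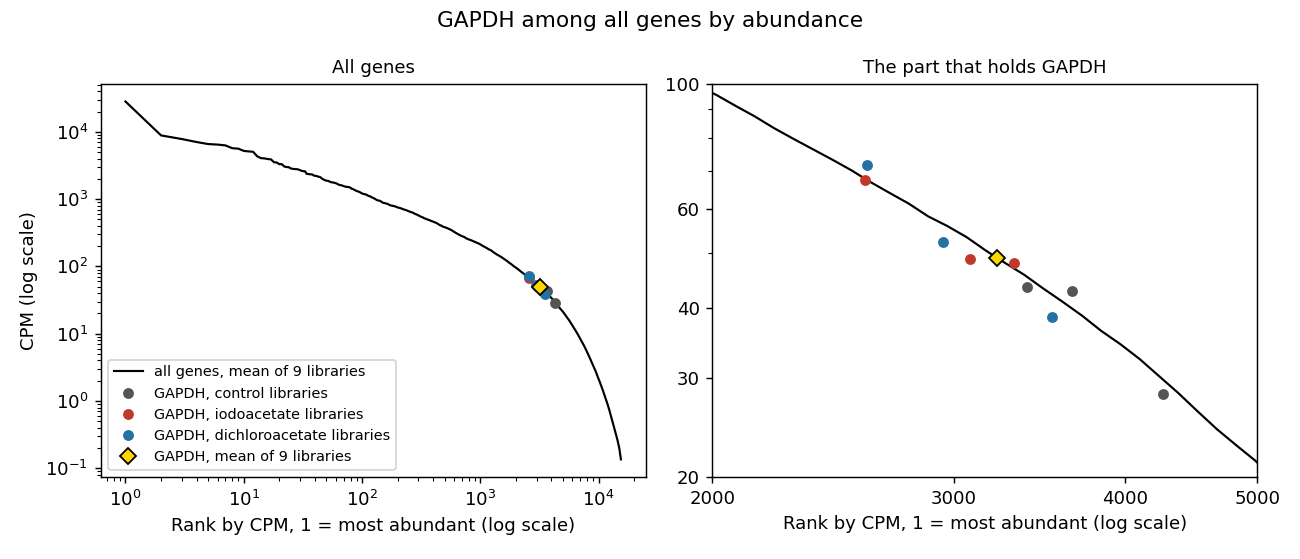
Level in CPM (y axis, log scale) against rank by CPM (x axis, log scale) for all genes, as a line through the means of 9 libraries, in full on the left and around GAPDH on the right. Circles are GAPDH in single libraries, coloured by group, and the diamond is its mean over 9 libraries, at rank 3227 and 49.1 CPM. The single libraries run from rank 2586 to rank 4267.

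GAPDH varied more over the 9 libraries than most genes of like abundance. The SD of its log2 CPM, after TMM scaling, was 0.38. Among the 200 genes nearest in average log2 CPM, 100 on either side, the median SD was 0.29, and 157 of the 200, or 78.5%, varied less than GAPDH. Within groups, with the group means removed, its SD was 0.32 against a median of 0.29 in the same 200 genes, and 113 of them, or 56.5%, varied less. Its spread within a group was thus near the middle of its neighbours, and its place moved up where differences between groups were counted too. This is a description of these libraries, with no test.

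GAPDH was higher with iodoacetate than in the control by 1.47-fold in the fit to all genes, a difference that did not pass the test. The log2 fold change was 0.56 with a standard error of 0.25, and the 95% interval of the fold ran from 1.02 to 2.11. Scaled by library totals only, without TMM, the interval ran from 0.962 to 2.14 (unadjusted p = 0.0735, edgeR). In edgeR's quasi-likelihood test the unadjusted p was 0.0397 and the p adjusted by Benjamini-Hochberg over 12016 genes was 0.567. The test called 0 of the 12016 genes (0%) at an adjusted p under 0.05, and 1023 (8.51%) had an unadjusted p under 0.05. Limma with voom weights also called 0. DESeq2 called 29 of 9160 genes (0.317%), and GAPDH, with an adjusted p of 0.460, was not among them. Some other edgeR fits called genes too, again without GAPDH. Without control library 3 there was 1 of 12314. With the leading direction of variation within groups as a covariate there were 160 (1.33%), and GAPDH had an adjusted p of 0.198. With the place in title order as a block there were 185 (1.54%), and GAPDH had a log2 fold change of 0.58 and an adjusted p of 0.177. The CPM ranges did not overlap for GAPDH, with iodoacetate above, which held for 712 genes (5.93%). In an exact two-sided permutation test of the CPM means, the difference of 16.6 CPM gave p = 0.1, the smallest that 3 libraries against 3 can give, and an adjusted p of 0.3 over the 3 comparisons.

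The size of this difference was above that of most genes at the same level. Of the 200 genes nearest to GAPDH in average log2 CPM, 14 had a larger absolute log2 fold change between iodoacetate and control, 7 of them upward, and the median absolute value of the 200 was 0.20. Over all 12016 genes, 17.1% had a larger absolute value, and the median log2 fold change was -0.01. GAPDH ranked 839 by p-value. Between libraries of the same number, matched by title order only, GAPDH was 5.25, 5.21 and 39.4 CPM higher with iodoacetate. The largest of these set the highest iodoacetate library against the lowest control library. Without library 2 of each group, the log2 fold change was 0.70 (adjusted p = 0.406, edgeR). The difference became smaller without either of 2 libraries. Without iodoacetate library 3, the highest of its group, the log2 fold change was 0.37 (unadjusted p = 0.195, adjusted p = 0.915, edgeR). Without control library 3 it was 0.39 (unadjusted p = 0.166, adjusted p = 0.880, edgeR).

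GAPDH was higher with dichloroacetate than in the control by 1.44-fold, which did not pass the test either. The log2 fold change was 0.52 with a standard error of 0.25, and the 95% interval of the fold ran from 0.998 to 2.07. The unadjusted p was 0.0508 and the adjusted p was 0.764 in edgeR's quasi-likelihood test. In this comparison the test called 0 genes (0%), limma with voom weights and DESeq2 called 0 as well, and 759 genes (6.32%) had an unadjusted p under 0.05 in edgeR. The exact two-sided permutation test of the CPM difference of 16.0 gave p = 0.3, with an adjusted p of 0.45 over the 3 comparisons. In CPM, 2 of the 3 dichloroacetate libraries lay above the highest control library. Between libraries of the same number, matched by title order only, GAPDH was 8.84, 29.0 and 10.3 CPM higher with dichloroacetate. With the place in title order as a block, edgeR called 5 genes (0.0416%) with GAPDH not among them (log2 fold change 0.52, adjusted p = 0.283). The covariate fit called 1 of 12016 genes and the fit without control library 3 called 1 of 12314, again not GAPDH. Without library 2 of each group the log2 fold change was 0.43 (adjusted p = 0.773, edgeR). Among the 200 neighbours in level, 20 had a larger absolute log2 fold change, 6 of them upward. The difference fell to a log2 fold change of 0.38 without dichloroacetate library 2 and to 0.36 without control library 3, and rose to 0.69 without dichloroacetate library 3 (edgeR adjusted p = 0.677, 0.910 and 0.967). Both compounds were compared with the same 3 control libraries, so a low control library enters both differences.

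**Figure D3:**
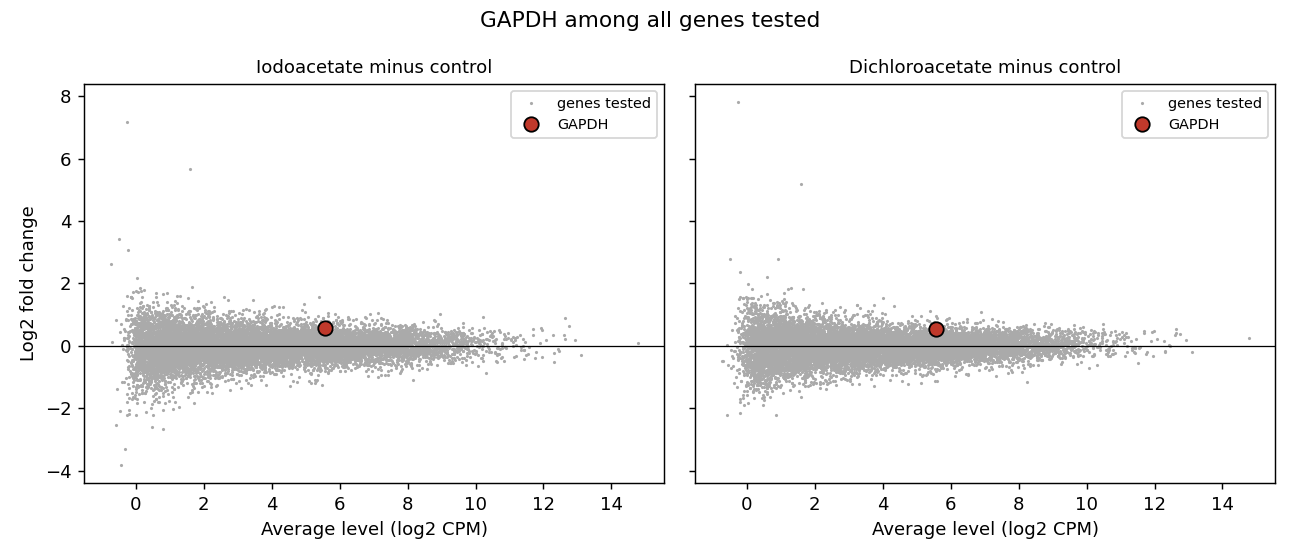
Log2 fold change against the control (y axis) by average level in log2 CPM (x axis) for the 12016 genes tested, in grey, with GAPDH as the large point. GAPDH lies at 0.56 with iodoacetate (left) and 0.52 with dichloroacetate (right), and both panels share the same control libraries.

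Between the compounds GAPDH showed no detectable difference. The fold of iodoacetate over dichloroacetate was 1.02, with a 95% interval from 0.712 to 1.47, and the log2 fold change was 0.03 with a standard error of 0.24. The unadjusted p was 0.897 and the adjusted p was 0.99982 in edgeR's quasi-likelihood test, which called 0 genes (0%) here, as did DESeq2 and limma with voom weights. An unadjusted p under 0.05 was found for 186 genes (1.55%). The means differed by 0.562 CPM (exact two-sided permutation p = 1 and adjusted p = 1), and the ranges overlapped. Both compounds are acetates, one carrying iodine and the other chlorine, and their concentrations in these oocytes are not stated, so equal doses cannot be assumed. The interval leaves room for a difference of up to 1.47-fold upward or down to 0.712-fold. It reversed in sign without iodoacetate library 3, at a log2 fold change of -0.15, and without dichloroacetate library 3, at -0.13.

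**Figure D4:**
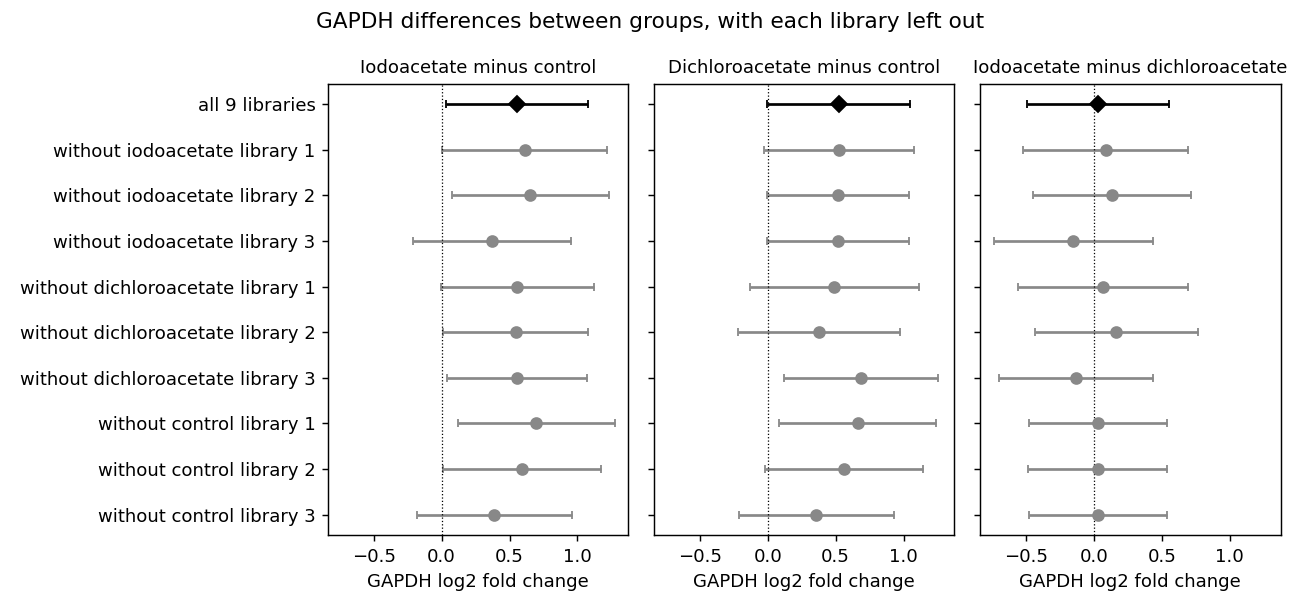
GAPDH log2 fold change (x axis) in the 3 comparisons, from edgeR with all 9 libraries (diamond, top) and with each library left out in turn (circles). Bars are 95% intervals and the dotted line marks no difference. Estimates against the control stay above 0 in every one of these fits, from 0.37 to 0.70 with iodoacetate and from 0.36 to 0.69 with dichloroacetate, while several of the intervals reach below 0.

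The genes whose levels followed GAPDH most closely were looked up among the 4081 other genes with an average log2 CPM above 5, by Pearson correlation of log2 CPM over the 9 libraries. The CPM of the genes named here were turned back from TMM-scaled log2 CPM, so they are not on the scale of the GAPDH values above. ENSBTAG00000039671 had the highest value, r = 0.93 (Spearman's rho = 0.93). Its mean was 30.4 ± 5.12 CPM in control oocytes, 45.8 ± 5.96 CPM after iodoacetate and 41.7 ± 5.25 CPM after dichloroacetate (SD, n = 3 each). ENSBTAG00000007766 came next, with r = 0.92 (rho = 0.92), and means of 32.7 ± 7.96, 56.7 ± 8.05 and 47.9 ± 7.49 CPM for control, iodoacetate and dichloroacetate (SD, n = 3 each). The most opposite genes were ENSBTAG00000009469, with r = -0.93 (rho = -0.88), and ENSBTAG00000015083, with r = -0.92 (rho = -0.88). Their control means, at 586 ± 101 and 91.3 ± 13.9 CPM, lay above their iodoacetate means of 455 ± 40.3 and 67.4 ± 5.43 CPM and their dichloroacetate means of 434 ± 46.3 and 70.8 ± 13.7 CPM (SD, n = 3 each). Without iodoacetate library 3 and control library 3, the libraries farthest from GAPDH's median, r was 0.78, 0.80, -0.87 and -0.93 in the order named. These values are the extremes of 4081 correlations over the same 9 libraries, with a median of -0.0012. They include the differences between groups, so no p is attached to the correlations. Group means of genes picked this way thus tend to follow or mirror those of GAPDH. Between iodoacetate and control, their edgeR adjusted p was 0.481, 0.374, 0.621 and 0.583 in the order named.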

How the data were processed

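The authors deposited 1 table of raw read counts per gene, whole numbers with no normalization. Per the submitters' processing notes, Trim Galore, cutadapt, STAR, featureCounts and DESeq2 were used. The sources used here do not give versions, genome build, annotation or counting mode. Per the labels' protocols, cDNA was made from pools of 5 oocytes with the SMART-Seq HT kit, which primes on polyadenylated RNA and amplifies it, and libraries with Nextera XT. The kit marks neither strand nor molecules, so counts include amplified copies and only polyadenylated transcripts enter.

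CPM was the count divided by the library's total, times 1000000. For the genes correlated with GAPDH it was instead turned back from TMM-scaled log2 CPM. Tests used edgeR 4.0.16 in R 4.3.3 with TMM scaling, the default filter (12016 genes kept, 3962 left out), 1 model over all 9 libraries and the robust quasi-likelihood test. A run on simulated data used independent libraries and far larger changes than those of GAPDH. It therefore does not show how the test performs at differences of this size. Log2 CPM used a prior count of 2. Exact permutation tests used scipy 1.17.1. DESeq2 1.42.0 and limma 3.58.1 (voom) served as alternatives. Counts of libraries from 1 group differed beyond sampling noise in every pair (a chi-square statistic of 14.8 to 52.8 per degree of freedom, higher in each group for both pairs with library 2 than for the pair without it). Nothing in the labels says that pools came from separate maturation runs, so p-values reflect spread among these libraries alone, possibly technical in part. GAPDH, the lists and the alternatives were chosen with earlier results of these data known. Genes named beside GAPDH were the 2 most positively and the 2 most negatively correlated with it. Gene lists by symbol could not be joined, and no sequence is shown.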

Additional observations from a re-analysis of the deposited data

How the results depend on the processing

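GAPDH stayed above the control with both compounds, and without an adjusted p under 0.05, under all 21 alternatives of each comparison (other scalings, filters and tests, 2 groups only, no robust estimation, a covariate, a block, each library left out, and library 2 of each group left out). The log2 fold change ranged from 0.37 to 0.70 with iodoacetate and from 0.36 to 0.69 with dichloroacetate. The lowest edgeR adjusted p-values were 0.177 with the block for iodoacetate and 0.277 with the covariate, the leading direction in which libraries of a group varied, for dichloroacetate. The unadjusted p was under 0.05 in 17 of the 21 alternatives with iodoacetate and in 8 of the 21 with dichloroacetate. The alternatives reuse the same libraries, and some leave out only a library of the group not compared. They are therefore not independent tests.

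Between the compounds the log2 fold change ranged from -0.15 without iodoacetate library 3 to 0.28 without library 2 of each group, was 0.17 without dichloroacetate library 2, and was -0.13 without dichloroacetate library 3. The CPM difference, recomputed with alternatives chosen after seeing the data, ranged from -7.33 without dichloroacetate library 3 to 9.36 without dichloroacetate library 2, and was -5.81 without iodoacetate library 3 and -0.344 without dichloroacetate library 1. Against the control it ranged from 10.2 to 19.99 with iodoacetate, and from 7.25 without dichloroacetate library 2 to 23.9 without dichloroacetate library 3. The share of neighbours that varied less than GAPDH was 56.5% with group means removed. Its rank ranged from 3125 to 3331. Sample titles carry no number that recurs between groups, so the stated design has no pairing. A replicate block by place in title order, like the fit without library 2, was added after seeing the data. It gave GAPDH log2 fold changes of 0.58 with iodoacetate, 0.52 with dichloroacetate and 0.06 between the compounds. Genes called went, in that order, from 0, 0 and 0 to 185, 5 and 0. Deviations from group means correlated across genes at 0.11 to 0.44 for libraries of the same place and at -0.36 to 0.22 otherwise. These ranges overlap and library 2 enters both, but 8 of 9 libraries correlated best with their own place. Joint handling was not tested.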
